A study of Mus musculus with 16 samples.

Results

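Transcripts of the interferon-inducible GTPases were described in mouse cardiac tissue of 4 genotypes. The genes were those rows of the deposited count table whose symbol was Gbp2, Gbp3, Gbp5, Gbp6 or Gbp7, of the guanylate-binding proteins (GBPs), or Irgm1, Irgm2, Igtp, Iigp1 or Tgtp1, of the immunity-related GTPases (IRGs). The 10 symbols matched 11 of the table's 36499 gene entries, because Irgm1 stands there on 2 entries, and all 11 passed the filter on low counts. Each genotype had 4 libraries: wild type, a knockout of Fgf21, a knockout of Clpp and a double knockout of both genes, called Fgf21 KO, Clpp KO and double KO here. Clpp was removed from the whole body by crossing mice with a floxed Clpp allele to mice carrying Cre under the β-actin promoter, and Clpp KO animals came from crossing heterozygotes. The double KO came from mice floxed at both genes and the same Cre. How the Fgf21 KO was made, whether the wild-type animals carried Cre, and the age of the animals are not given in the sources used here. All mice ate normal chow. The labels number the libraries of a group without naming animals. A p-value here therefore sets a difference against the spread between these libraries only, and that spread may be technical.

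GBPs and IRGs are GTPases that interferon-exposed cells make in quantity and load onto membranes. GBPs are large GTPases that assemble on vacuoles holding pathogens and on bacteria in the cytosol, where they help to activate inflammatory caspases. Among the IRGs, the effectors (here Iigp1 and Tgtp1) coat and break such vacuoles, while the regulators (Irgm1, Irgm2 and Igtp, also called Irgm3) sit on the membranes of the host's own organelles and hold the effectors inactive there. Irgm1 is also known for roles at mitochondria and lysosomes and in autophagy. Their promoters are classically switched on through 2 kinds of DNA element: the interferon-stimulated response element (ISRE), which binds IRF9-containing complexes and other IRF proteins, and the gamma-activated site (GAS), named for its part in the response to interferon gamma. In mitochondria, CLPP forms the proteolytic core of the ClpXP protease. FGF21 is a hormone that stressed tissues release. The series is about how FGF21 bears on the response of heart muscle cells to failing mitochondria.

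The promoter sequences around these elements are shown here because the members that moved and those that did not can be compared by them. The RefSeq promoter table (GRCm38.p6, 250 bases before to 50 after each start) held 8 of the 10 members, in 9 windows, and lacked Gbp6 and Iigp1. Both strands were searched for the ISRE core (GAAA, any 2 bases, GAAA) and for the GAS motif (TTC, any 3 bases, GAA). The sequences below run 5′ to 3′ on the strand of the gene. Capitals mark every ISRE core (read as TTTC, 2 bases, TTTC where it lies on the opposite strand) and every GAS that falls within the stretch. The regulatory IRGs Irgm2 (chr11:58214873-58214962, plus strand), Igtp (chr11:58199482-58199571, plus strand) and Irgm1 (chr11:48871395-48871490, minus strand) are followed by the effector Tgtp1 (chr11:48992274-48992363, minus strand).
Irgm2: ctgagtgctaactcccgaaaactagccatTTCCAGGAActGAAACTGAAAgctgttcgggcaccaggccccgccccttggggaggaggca
Igtp: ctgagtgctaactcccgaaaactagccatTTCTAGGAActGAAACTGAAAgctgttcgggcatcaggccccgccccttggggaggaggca
Irgm1: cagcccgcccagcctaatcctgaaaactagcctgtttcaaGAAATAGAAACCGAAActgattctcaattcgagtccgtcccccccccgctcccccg
Tgtp1: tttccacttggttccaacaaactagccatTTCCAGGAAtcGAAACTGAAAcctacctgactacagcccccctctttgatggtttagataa
In Irgm2, Igtp and Tgtp1 the capitals before the 2 lower-case bases are the GAS and those after them the ISRE core. Igtp and Irgm2, which lie next to each other, were identical at 88 of the 90 bases shown (97.8%), whereas Tgtp1 matched Irgm2 at 48 of 90. In Irgm1 there is no GAS in the window, and 2 ISRE cores share 4 bases.

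The GBP promoters are laid out differently. Gbp2 (chr3:142620564-142620653), Gbp3 (chr3:142559959-142560054), Gbp5 (chr3:142496729-142496818) and Gbp7 (chr3:142530243-142530332) are all on the plus strand.
Gbp2: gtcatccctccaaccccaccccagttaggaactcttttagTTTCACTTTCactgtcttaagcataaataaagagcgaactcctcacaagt
Gbp3: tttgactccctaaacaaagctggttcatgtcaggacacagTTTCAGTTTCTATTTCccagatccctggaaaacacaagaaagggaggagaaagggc
Gbp5: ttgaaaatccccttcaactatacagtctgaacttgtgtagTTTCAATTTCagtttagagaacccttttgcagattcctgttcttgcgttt
Gbp7: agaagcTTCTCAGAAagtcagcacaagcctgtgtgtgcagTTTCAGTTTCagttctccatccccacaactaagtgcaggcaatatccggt
In these 4 genes the ISRE core lies on the strand opposite to the gene. Gbp3 has 2 overlapping cores, and the lone GAS in capitals belongs to Gbp7.

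An ISRE core was found in 8 of the 9 member windows, beside 3.44% of the 32851 windows of the table. Counted by gene, this was 8 of the 8 matched members beside 3.99% of all genes. The window without it was the second one of Gbp3, which held neither motif. A GAS was found in 5 of the 8 members (Gbp5, Gbp7, Irgm2, Igtp and Tgtp1), beside 9.55% of all genes. The first base of the ISRE core nearest the start lay between positions -59 and -24 from the start in Gbp2, Gbp3, Gbp7, Irgm1 and Igtp, and at -64, -77 and -165 in Irgm2, Tgtp1 and Gbp5. A GAS, then 2 bases, then an ISRE core on the same strand stood in 5 promoters of the whole table (0.0152%). These were Igtp, Irgm2, Tgtp1, its copy Tgtp2 and the IRG gene model Gm12185. This arrangement was noticed in the printed sequences and then counted, and related copies of 1 family share sequence. A match is a description of letters, not of binding.

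**Figure D1:**
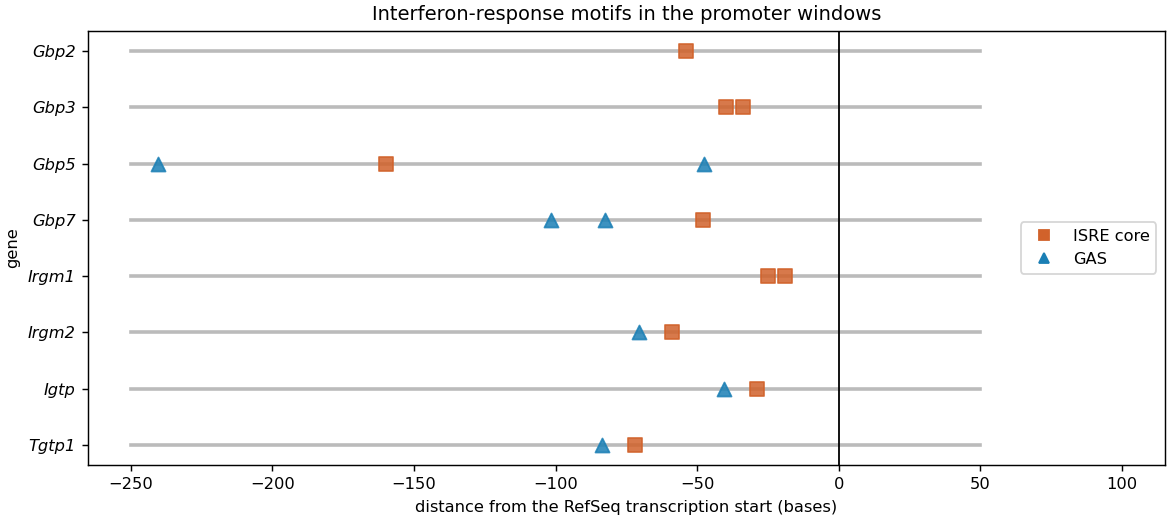
Positions of ISRE cores (squares) and GAS motifs (triangles) in 1 promoter window of each of 8 members, in bases from the RefSeq transcription start (vertical line), with each marker at the centre of its motif. Each of the 8 windows drawn holds an ISRE core, the second Gbp3 window, which has neither motif, is not drawn, and Irgm2, Igtp and Tgtp1 hold a GAS just upstream of it.

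By GENCODE M21 on GRCm38, the members lie in clusters. Gbp5, Gbp7, Gbp3 and Gbp2 follow each other on chromosome 3, from position 142493978 to 142638008, on the plus strand. Gbp6 is on chromosome 5, positions 105270702 to 105293698, on the minus strand. Irgm1 (48861968 to 48871683) and Tgtp1 (48985327 to 48994172) are on the minus strand of chromosome 11, and Igtp (58199556 to 58207591) and Irgm2 (58199618 to 58222782) are overlapping gene models on its plus strand. Iigp1 is on chromosome 18. The identifiers are ENSMUSG00000028270 (Gbp2), ENSMUSG00000028268 (Gbp3), ENSMUSG00000105504 (Gbp5), ENSMUSG00000104713 (Gbp6), ENSMUSG00000040253 (Gbp7), ENSMUSG00000046879 (Irgm1), ENSMUSG00000069874 (Irgm2), ENSMUSG00000078853 (Igtp), ENSMUSG00000054072 (Iigp1) and ENSMUSG00000078922 (Tgtp1).

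Libraries held 36260545 to 51820727 counts. Levels are given as CPM, counts relative to a library total that was rescaled with TMM factors (trimmed mean of M-values) of 0.674 to 1.83. Genes encoded in mitochondrial DNA took 25.5% to 39.4% of counts in the 8 libraries with Clpp and 56.1% to 60.8% in the 8 without, so the scaling matters for these comparisons. Clpp transcripts measured 33.6 ± 6.49 CPM (wild type) and 37.7 ± 7.48 (Fgf21 KO), and dropped to 8.62 ± 0.843 (Clpp KO) and 8.32 ± 1.03 (double KO; SD, n = 4 each). Fgf21 had 0 counts in the 8 libraries labelled as lacking it, 1, 0, 5 and 0 in wild type, and 21, 6, 28 and 14 in Clpp KO. Ventricular cardiomyocyte markers summed to between 25512 and 57693 CPM in every library. Wild-type replicates 2 and 4 stood apart: their atrial marker sums were 10451 and 6650 CPM against 136 and 129 in replicates 1 and 3, and replicate 2 had Y-linked transcripts at 2.29 CPM against 35.3 to 81.1 elsewhere. Of all pairs within a group, wild-type replicates 1 and 3 resembled each other most: their counts differed with a mean chi-square of 5.68 per entry, where sampling alone gives 1 and the other 23 pairs within groups gave 23.3 to 408. They differed by more than sampling noise and were kept as separate libraries. This does not tell separate animals from separate preparations of 1 animal, so the 4 wild-type libraries may stand for fewer animals. Counted as 1 library, they left 7 members called for Clpp KO and 8 for double KO, each against wild type, and 7 for double KO against Fgf21 KO, beside 7 in each with both. Over all entries, those called higher grew in that setting too, from 165 to 266 for Clpp KO and from 160 to 288 for double KO, each against wild type. Entries called lower grew from 84 to 296 and from 73 to 533. For double KO against Fgf21 KO 126 entries were called higher in both settings.

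Compared per kilobase of exon, the members differed in level already in wild-type hearts. Igtp was the highest at 5.53 ± 0.498 CPM per kb, followed by Gbp2 (4.55 ± 0.916), Gbp6 (3.77 ± 2.23) and Irgm2 (3.65 ± 0.142) (SD, n = 4 each). The libraries of each gene in that series overlapped those of the next. Iigp1 (2.40 ± 0.503), Gbp3 (2.23 ± 0.328) and Irgm1 (2.16 ± 0.24) formed a middle set whose neighbours overlapped, below Irgm2 without overlap. Tgtp1 (1.30 ± 0.241), Gbp7 (0.862 ± 0.221) and Gbp5 (0.647 ± 0.123) were the lowest, and Tgtp1 did not overlap Irgm1. In Clpp KO the order changed mainly at Gbp2, which moved from the second place to the sixth at 5.33 ± 0.666 CPM per kb. Igtp then stood at 20.8 ± 6.1, Gbp6 at 12.6 ± 4.08, Irgm2 at 12.4 ± 2.7 and Iigp1 at 8.90 ± 1.96, and Gbp5 remained last at 0.997 ± 0.0908. In Fgf21 KO, with Clpp intact, Gbp6 (4.16 ± 0.622) was already above Gbp2 (3.67 ± 0.518), and their libraries overlapped.

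Clpp KO against wild type describes the loss of CLPP with Fgf21 intact. The 3 regulatory IRGs, the effector Iigp1 and the GBPs Gbp3, Gbp6 and Gbp7 rose, between 1.80-fold and 3.76-fold, and Gbp2, Gbp5 and Tgtp1 did not pass the test. By edgeR's quasi-likelihood test with Benjamini-Hochberg adjustment over 15255 entries, 7 of 10 members were higher and 0 lower, where 1.08% of all entries were called higher. The median log2 fold change was 1.35 over the members and -0.04 over all entries. The member genes had been proposed with results of these libraries known, so their direction is not independent evidence.

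All 3 regulatory IRGs rose. Irgm1 levels were 14.2, 12.3, 12.8 and 10.9 CPM across wild-type replicates 1 to 4 and at 41.2, 29.6, 24.8 and 32.7 in Clpp KO. No Clpp KO library overlapped a wild-type library, and the log2 fold change was 1.35 ± 0.16 (SE, edgeR adjusted p = 0.000281). Irgm2 was at 12.7, 13.9, 13.7 and 13.4 CPM in wild type, the tightest group of any member, and at 60.2, 43.1, 37.2 and 42.6 in Clpp KO. Its groups were far apart (log2 fold change 1.77 ± 0.27, edgeR adjusted p = 0.00243). Igtp had 12.5, 10.4, 11.5 and 10.3 CPM in wild type and 59.5, 37.0, 30.9 and 40.6 in Clpp KO. Every Clpp KO library was above every wild-type library, at a log2 fold change of 1.91 ± 0.30 (edgeR adjusted p = 0.00313). Without wild-type replicates 2 and 4 Igtp kept the size (1.81 ± 0.43) and not the call (edgeR adjusted p = 0.0789).

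The 2 effectors differed in whether they passed the test. Iigp1, also known as Irga6, was at 15.7, 10.4, 16.9 and 12.9 CPM in wild type and at 67.8, 46.9, 41.3 and 51.4 in Clpp KO, with no overlap. Its log2 fold change was 1.89 ± 0.26 (edgeR adjusted p = 0.00098). Tgtp1, also known as Irgb6, was at 4.97, 4.06, 4.44 and 3.14 CPM in wild type and at 11.3, 6.35, 5.25 and 8.17 in Clpp KO. The groups did not overlap, but the lowest Clpp KO library was just above the highest wild-type library, and the log2 fold change of 0.91 ± 0.33 did not pass the test (edgeR adjusted p = 0.15). The difference between the 2 effectors was not tested.

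Among the GBPs, Gbp7 was at 5.26, 4.80, 6.13 and 3.18 CPM in wild type and at 15.7, 9.54, 11.3 and 12.6 in Clpp KO (log2 fold change 1.34 ± 0.22, edgeR adjusted p = 0.00354), with no overlap. Gbp3 was at 7.13, 8.71, 7.24 and 6.11 against 16.5, 11.9, 11.2 and 12.9 CPM. It too separated the groups (0.85 ± 0.16, edgeR adjusted p = 0.0115), although without Clpp KO replicate 1 its call was lost (0.72 ± 0.16, edgeR adjusted p = 0.0543). Gbp6 had the widest wild-type group, at 34.0, 13.2, 33.7 and 8.91 CPM, against 111, 58.5, 69.7 and 61.6 in Clpp KO. The low wild-type libraries were replicates 2 and 4, those rich in atrial transcripts. With the atrial marker level as a covariate Gbp6 was still called here. In double KO against wild type its call was lost with that covariate (1.69 ± 0.38, edgeR adjusted p = 0.053). The part of that tissue difference in Gbp6 was otherwise not tested. Gbp6 had a log2 fold change of 1.74 ± 0.41 (edgeR adjusted p = 0.0455), and the call was lost when wild-type replicate 2 or 4 or any 1 Clpp KO library was left out (1.48 to 1.85, edgeR adjusted p 0.0755 to 0.148). Without both of those wild-type libraries it was 1.15 ± 0.36 (edgeR adjusted p = 0.2). The Gbp6 call was also lost without the filter on low counts (edgeR adjusted p = 0.0901) and when only the groups compared were fitted (edgeR adjusted p = 0.119).

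Gbp2 and Gbp5 changed least. Gbp2 had the highest mean per kilobase of the GBPs in wild type, where it overlapped Gbp6. It was at 9.62, 13.3, 9.30 and 13.5 CPM in wild type and at 15.3, 14.2, 11.4 and 12.8 in Clpp KO. Its groups overlapped, and the log2 fold change was 0.23 ± 0.17 (95% interval -0.12 to 0.58, edgeR adjusted p = 0.424). The overlap came from wild-type replicates 2 and 4, those rich in atrial transcripts. With the atrial marker level as a covariate Gbp2 was still not called, and the part of that tissue difference was otherwise not tested. Wild-type replicates 1 and 3 lay below every Clpp KO library. Limma voom called Gbp2 higher (0.43, adjusted p = 0.0224). Gbp5, which is known to promote inflammasome assembly, was at 5.33, 4.15, 4.34 and 3.34 CPM in wild type and at 7.48, 6.51, 6.07 and 6.41 in Clpp KO. Its groups did not overlap (0.62 ± 0.18), but the test was not passed (edgeR adjusted p = 0.0826). Without wild-type replicate 1 Gbp5 passed (0.75, edgeR adjusted p = 0.0397). Gbp5 also passed with DESeq2 (adjusted p = 0.0213), limma voom (adjusted p = 0.0199) and an atrial covariate (edgeR adjusted p = 0.0345). In all, 9 of 10 members were higher in every Clpp KO library than in every wild-type library, the exception being Gbp2, and 7.75% of all entries were. Both Gbp2 and Gbp5 carry an ISRE core in the windows printed above, as do the 5 members that rose and had a window to search (Gbp3, Gbp7, Irgm1, Irgm2 and Igtp).

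These changes are relative to TMM scaling. With library totals alone the median of all entries moved to -0.79, and entries called higher and lower were 95 and 11838 in place of 165 and 84. On that scale 6 members were called higher, Gbp3 lost its call (0.07, edgeR adjusted p = 0.788), Gbp5 was at -0.12, and Gbp2 was called lower at -0.56 (edgeR adjusted p = 0.0417).

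**Figure D2:**
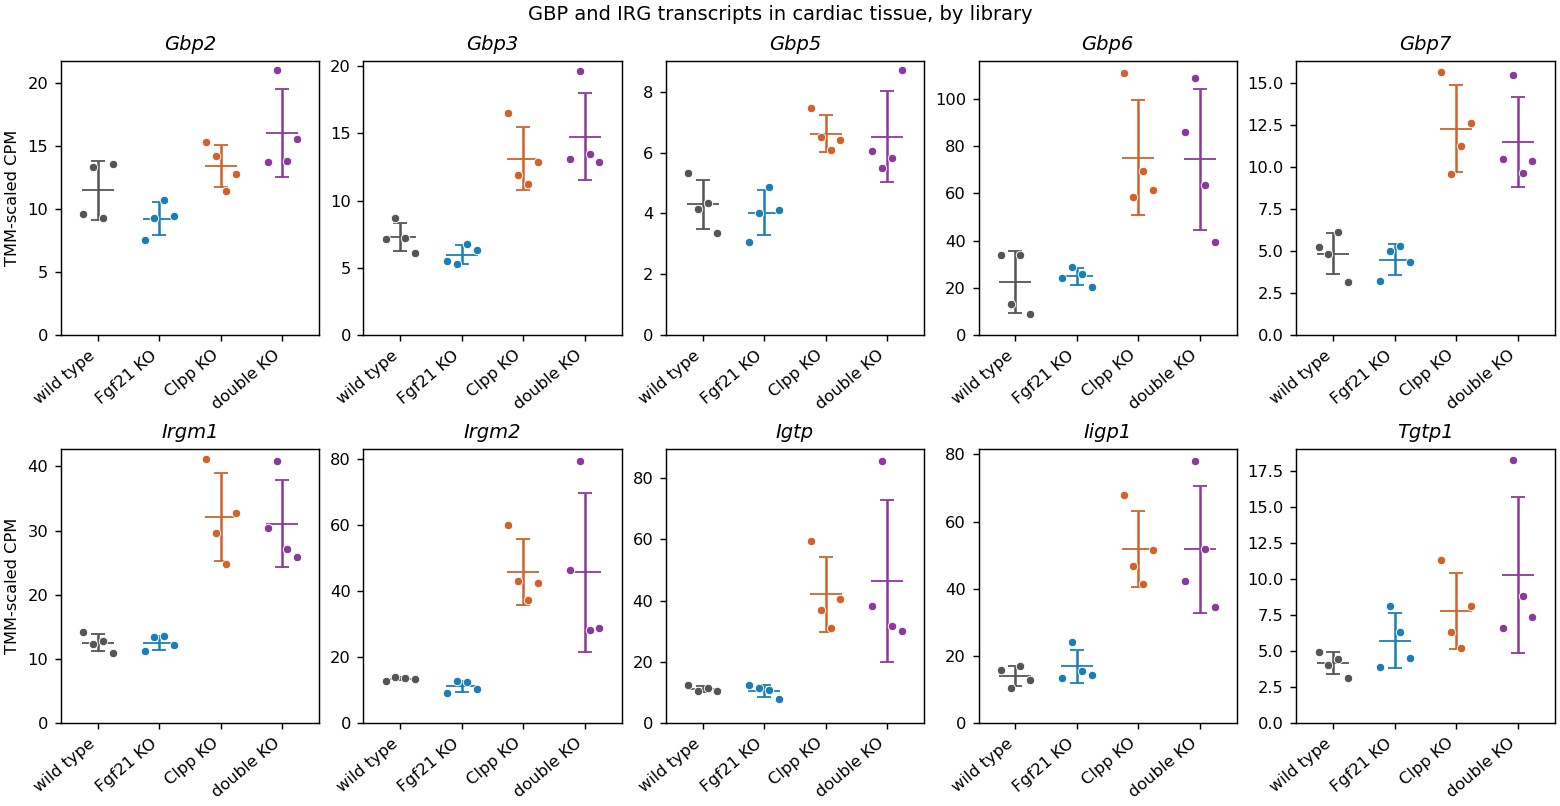
TMM-scaled CPM of the 10 genes in every library (points), with the group mean (long bar) and SD (whiskers), n = 4 libraries per genotype and a separate linear axis from 0 for each gene. For Irgm1, Irgm2, Igtp and Iigp1 all libraries lacking Clpp lie above all libraries with Clpp, while those of Gbp2 and Tgtp1 overlap.

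Double KO against Fgf21 KO asks the same question where Fgf21 is also absent, and shares no library with the comparison above. Both comparisons came from the same fit of all 16 libraries, which share an estimate of the spread. Irgm1, Irgm2, Igtp, Iigp1, Gbp7, Gbp3 and here Gbp2 rose, between 1.74-fold and 4.41-fold. By edgeR's quasi-likelihood test 7 of 10 members were higher and 0 lower (adjusted p under 0.05), against 0.826% of all entries called higher. The median was 1.34 over the members and -0.01 over all entries. With library totals alone the median of all entries was -0.70, entries called higher and lower were 96 and 10762 in place of 126 and 10, and Gbp5 was at -0.0042.

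The regulatory IRGs again stood apart from their controls. Irgm1 was at 11.2, 13.4, 13.5 and 12.1 CPM in Fgf21 KO and at 30.4, 40.9, 27.2 and 25.9 in double KO (1.31 ± 0.16, edgeR adjusted p = 0.000297). Irgm2 was at 9.20, 12.7, 12.4 and 10.2 against 46.4, 79.6, 28.1 and 28.7 CPM (2.04 ± 0.27, edgeR adjusted p = 0.00069). Igtp was at 12.3, 11.4, 10.6 and 7.74 against 38.2, 85.6, 31.6 and 30.0 CPM (2.14 ± 0.30, edgeR adjusted p = 0.00111). None of the 3 genes overlapped between groups, and double KO replicate 2 was far above its group for Irgm2 and Igtp. The effector Iigp1 was at 13.5, 24.1, 15.6 and 14.3 CPM in Fgf21 KO and at 42.4, 78.2, 51.8 and 34.4 in double KO (1.61 ± 0.26, edgeR adjusted p = 0.00301), again without overlap. Tgtp1, at 3.90, 8.14, 6.30 and 4.54 against 6.59, 18.3, 8.85 and 7.34 CPM, was the only member whose groups overlapped (0.85 ± 0.33, edgeR adjusted p = 0.562).

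Of the GBPs, Gbp3 had 5.53, 5.27, 6.77 and 6.35 CPM in Fgf21 KO and 13.1, 19.7, 13.4 and 12.9 in double KO, which did not overlap (1.30 ± 0.16, edgeR adjusted p = 0.000297). Gbp7 was at 3.20, 4.999, 5.28 and 4.36 against 10.5, 15.5, 9.62 and 10.3 CPM, also without overlap (1.36 ± 0.22, edgeR adjusted p = 0.00301). Gbp2 was at 7.52, 9.27, 10.7 and 9.40 against 13.7, 21.03, 13.8 and 15.5 CPM. Here its groups were apart and the call was made (0.80 ± 0.17, edgeR adjusted p = 0.0293). The Gbp2 call was lost without Fgf21 KO replicate 1, 2 or 4 or double KO replicate 2 or 4 (0.64 to 0.81, edgeR adjusted p 0.063 to 0.125). It was also lost when only these 2 groups were fitted (0.79, edgeR adjusted p = 0.0509) and with library totals alone (0.12, edgeR adjusted p = 0.656). Gbp6 was at 24.1, 29.0, 25.9 and 20.1 against 86.0, 109, 63.5 and 39.2 CPM, and Gbp5 at 3.06, 4.02, 4.87 and 4.12 against 6.05, 5.49, 5.81 and 8.72. Neither overlapped between groups and neither passed the test: Gbp6 was at 1.59 ± 0.40 (edgeR adjusted p = 0.119) and Gbp5 at 0.70 ± 0.18 (edgeR adjusted p = 0.106). The outcome for Gbp6 moved with the setting. Gbp6 passed when only these 2 groups were fitted (1.59 ± 0.28, edgeR adjusted p = 0.0385). It also passed without wild-type replicates 2 and 4, which are not in this comparison (1.57 ± 0.28, edgeR adjusted p = 0.0114). With all libraries kept it passed with DESeq2 (adjusted p = 0.00334), limma voom (adjusted p = 0.00448) and library totals alone (0.94, edgeR adjusted p = 0.0406). Gbp5 passed with DESeq2 (adjusted p = 0.0281). In this comparison 9 of 10 members were higher in every double KO library than in every Fgf21 KO library, beside 3.88% of all entries. Over all 8 libraries without Clpp against all 8 with it, 8 of 10 members did not overlap, Gbp2 and Tgtp1 being the exceptions, beside 1.24% of all entries.

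Double KO against wild type shares its wild-type libraries with Clpp KO against wild type and its double KO libraries with double KO against Fgf21 KO. It therefore gives values side by side and no separate support. Gbp3 (1.02), Gbp6 (1.73), Gbp7 (1.24), Irgm1 (1.31), Irgm2 (1.76), Igtp (2.05) and Iigp1 (1.89, all log2) rose, 7 of 10 members by edgeR beside 1.05% of all entries called higher. Gbp2 (0.48), Gbp5 (0.60) and Tgtp1 (1.31) did not pass, with edgeR adjusted p-values of 0.124, 0.092 and 0.0626. In all 10 genes every double KO library was above every wild-type library, beside 5.36% of all entries. The median log2 fold change was 1.31 over the members and -0.01 over all entries. The count fell to 3 without wild-type replicates 2 and 4, to 3 when only these 2 groups were fitted, and to 4 with library totals alone. Over all entries 124, 50 and 85 were called higher in these settings, in place of 160. With library totals alone 13039 entries were called lower, in place of 73. The Gbp6 call (edgeR adjusted p = 0.0484) was lost without wild-type replicate 2 or 4 or double KO replicate 1, 2 or 3 (1.47 to 1.80, edgeR adjusted p 0.0805 to 0.146). It was also lost without mitochondrial genes (edgeR adjusted p = 0.0512), without the filter (0.097) and with an atrial covariate (0.053). Fitting only these 2 groups lost it too (edgeR adjusted p = 0.252). Gbp5 passed without wild-type replicate 1 and with DESeq2 (adjusted p = 0.0338). Tgtp1 passed without wild-type replicate 1 or 3 and with both counted as 1 library. It also passed with DESeq2 (adjusted p = 0.00427) and limma voom (adjusted p = 0.0483), but not when summed with Tgtp2 (edgeR adjusted p = 0.169). Gbp2 passed with limma voom (adjusted p = 0.00304).

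The loss of Fgf21 was read with Clpp present and with Clpp absent. In neither did a member pass the test. In Fgf21 KO against wild type 0 of 10 members were called by edgeR, beside 0.0459% of all entries in either direction, and log2 fold changes ran from -0.31 to 0.46. The member with the smallest p was Gbp2 at -0.31 ± 0.17 (edgeR adjusted p = 0.55), followed by Gbp3 at -0.29 ± 0.16 (edgeR adjusted p = 0.56). At an unadjusted p under 0.05 edgeR, DESeq2 and limma voom with quality weights each had 0 members. The share of all entries under that unadjusted threshold was not counted, here or below, so nothing is read from these member counts. The 95% intervals of the log2 fold changes were narrowest for Irgm1 (-0.34 to 0.34), and their outermost ends were -0.84 for Irgm2 and 1.16 for Tgtp1.

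In double KO against Clpp KO 0 of 10 members were called, beside 0.059% of all entries, and log2 fold changes ran from -0.10 to 0.40. Gbp2 (0.25 ± 0.17) and Tgtp1 (0.40 ± 0.32) had the smallest p (edgeR adjusted p = 0.994 for each). At an unadjusted p under 0.05 edgeR and DESeq2 had 0 members and limma voom had 1, with 0 called by either alternative tool. The outermost ends of the 95% intervals were -0.86 for Gbp6 and 1.09 for Tgtp1. The mean level of Irgm2 was 45.8 ± 9.95 CPM in Clpp KO and 45.7 ± 24.1 in double KO, and that of Iigp1 51.8 ± 11.4 and 51.7 ± 19.0 (SD, n = 4 each). For both genes the spread in double KO was wider, with replicate 2 highest.

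The interaction asks whether the effect of Fgf21 loss differs with and without CLPP. By edgeR 0 of 10 members were called, where 0.0% of all 15255 entries were, and values ran from -0.28 to 0.57 (log2). Gbp2 had the smallest p, with 0.57 ± 0.24 (unadjusted p = 0.0288 in the edgeR fit, adjusted p = 1.00), and was the only member under 0.05 before adjustment. DESeq2 likewise had 1 member under 0.05 before adjustment and limma voom 0, and neither called a member. That Gbp2 was called after Clpp loss without Fgf21 and not with it is therefore not shown to be a difference. Intervals of the interaction reached from -1.35 to 1.11.

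**Figure D3:**
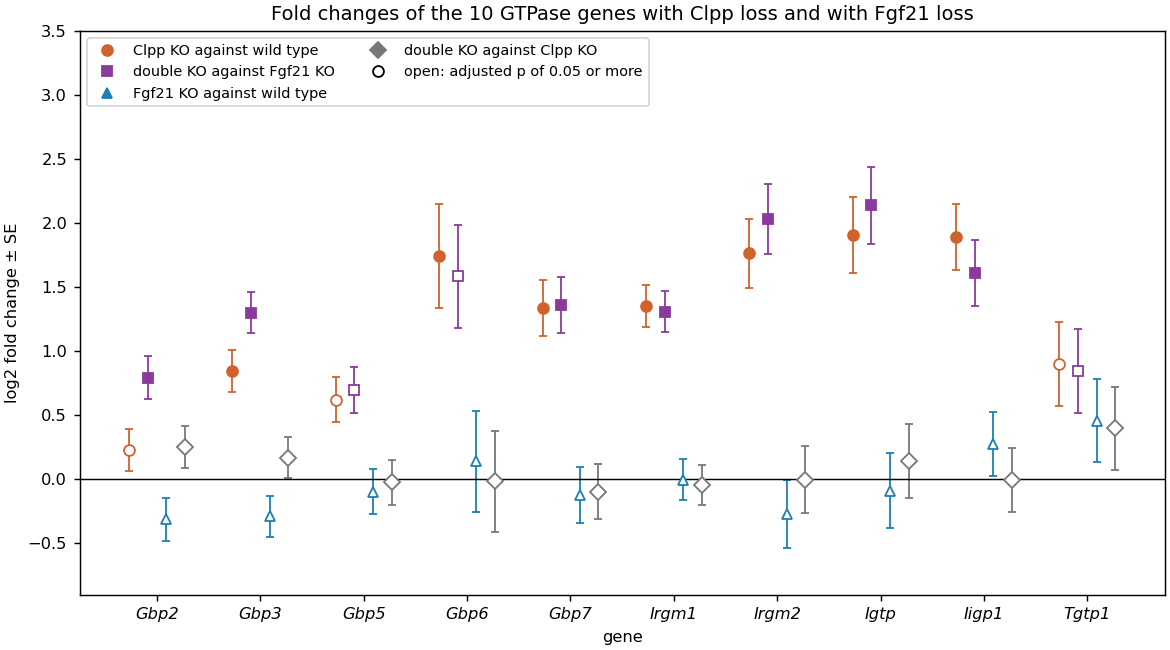
Log2 fold changes (symbols) and standard errors (bars) of the 10 genes in 4 comparisons of the edgeR fit, filled where the adjusted p was under 0.05. The comparisons of Clpp loss (circles and squares) lie between 0.23 and 2.14, and those of Fgf21 loss (triangles and diamonds) between -0.31 and 0.46 with no filled symbol.

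A single library led each group without Clpp. Clpp KO replicate 1 was the highest of its group for 10 of 10 members, with a member sum of 406 CPM against 249 to 282 in the other 3 libraries. Double KO replicate 2 was the highest for 9 of 10, with 473 CPM against 213 to 293. In that library Igtp was 2.57 times, Tgtp1 2.41 times and Irgm2 2.31 times the mean of the other 3, while Gbp5 was at 0.801 times. The rise therefore varied between members as well as between libraries. Macrophage and monocyte marker sums were 230 CPM in Clpp KO replicate 1 and 247 in double KO replicate 2, within the range of their groups (212 to 275 and 173 to 253), and the part of such cells was not tested. Without both of these libraries 6 members were called in each of the 3 comparisons of Clpp loss, where 7 had been. Calls over all entries fell too. Entries called higher were 97 (Clpp KO against wild type), 94 (double KO against Fgf21 KO) and 81 (double KO against wild type), in place of 165, 126 and 160.

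**Figure D4:**
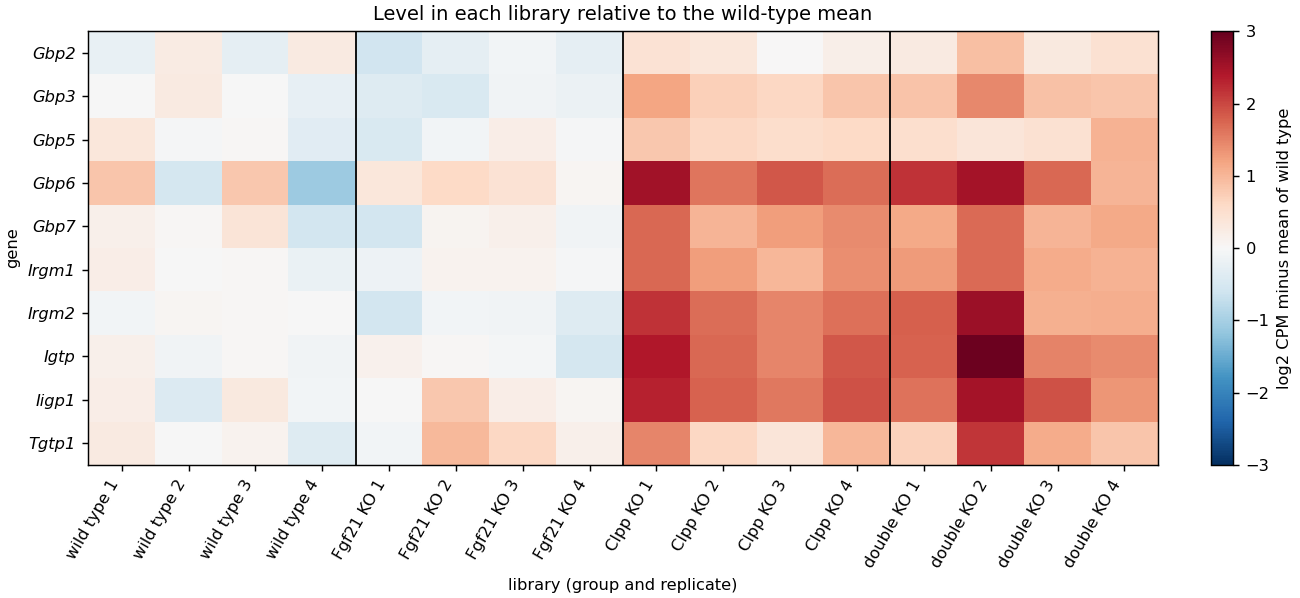
Each cell is the log2 TMM-scaled CPM of a gene (row) in a library (column, by genotype and replicate) minus the mean of the wild-type libraries. Clpp KO replicate 1 and double KO replicate 2 are the darkest columns, and Gbp2 and Gbp5 the palest rows among the libraries lacking Clpp.

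Levels of most members were correlated across libraries, with Gbp5 as an exception among the libraries lacking Clpp. Over the 16 libraries the correlation of log2 levels between 2 members had a median Pearson r of 0.845 over 45 pairs (0.476 to 0.979), and over the 8 libraries lacking Clpp, where genotype at Clpp does not enter, a median of 0.789 (-0.50 to 0.976). In those 8 libraries Gbp5 was negatively correlated with each of the other 9 members (-0.50 to -0.04), and the 36 pairs without Gbp5 lay between 0.377 and 0.976. Irgm1 followed the mean of the other 9 most closely (r = 0.989, n = 16 libraries) and Gbp2 least (0.743). Outside the family, genes most like the mean of the members included Parp14 (0.966), Tap1 (0.964), BC023105 (0.960), Ifit2 (0.960), Eif2ak2 (0.954), Lgals3bp (0.954) and Ifit3 (0.952). Eif2ak2 encodes the RNA-activated kinase PKR, and Tap1 a subunit of the peptide transporter for MHC class I. These are descriptions over libraries that share the Clpp genotype groups.

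Several members have near copies, between which the authors' pseudoalignment can divide reads. Of the 31-base words in Tgtp1 transcripts 84.4% occur in other genes, mostly in Tgtp2. For Gbp6 this was 74.3%, mostly in Gm43302, whose model overlaps it, for Igtp 15.9% (all in Irgm2), for Gbp7 14.7% and for Irgm2 10.7%, and for the other 5 members at most 6.92%. Tgtp1 and Gbp6 are therefore uncertain as single genes. With Tgtp1 and Tgtp2 summed, Clpp KO against wild type gave 0.67 ± 0.33 (edgeR adjusted p = 0.248), still not called. Summed with Gbp10 and Gm43302, Gbp6 gave 1.79 ± 0.42 (edgeR adjusted p = 0.0483). The second Irgm1 entry, ENSMUSG00000116444, has no place in GENCODE M21 and held 55, 0, 72 and 0 counts in Clpp KO, 0, 28, 22 and 0 in double KO, 1 in a single wild-type library and 0 in Fgf21 KO. Either many or no reads went to it in libraries of 1 group, and no direction is read from it. With both entries summed Irgm1 gave 1.39 ± 0.16 (edgeR adjusted p = 0.000202).

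Of the other GBP and IRG genes, 16 table entries of 14 symbols were tested. In Clpp KO against wild type 3 were called higher: Gm12250 (3.34 ± 0.49, edgeR adjusted p = 0.00168), annotated in GENCODE M21 as a processed pseudogene and known as the locus of the IRG effector Irgb10, Gm4951 (2.12 ± 0.34, edgeR adjusted p = 0.00308) and F830016B08Rik (3.00 ± 0.59, edgeR adjusted p = 0.017). The median of the 16 was 0.70. Gm12250 stood at 0.303 CPM per kb in wild type and 3.10 in Clpp KO. These 3 and Gm12185 were called in double KO against Fgf21 KO, with 4.05 ± 0.52 for Gm12250, 2.98 ± 0.36 for Gm4951 and 3.63 ± 0.61 for F830016B08Rik, and the median was 0.93. F830016B08Rik lost its call in Clpp KO against wild type without wild-type replicate 2 or 4 or without Clpp KO replicate 1 (2.55 to 2.85, edgeR adjusted p 0.0601 to 0.0612). Gm12250 (edgeR adjusted p = 0.0507) and F830016B08Rik (2.48, edgeR adjusted p = 0.179) also lost theirs without both of those wild-type libraries.

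The pathway that switches the family on was described from ligands to targets. None of the 10 interferon genes looked up reached the filter: over all 16 libraries Ifng had 8 counts, Ifnb1 3, Ifne 1 and the other 7 of them 0. Further interferon genes were not looked up. Of 9 receptors and kinases, only Jak1, a kinase that both interferon receptors use, passed in Clpp KO against wild type (0.92 ± 0.20, edgeR adjusted p = 0.0277), and 0 in double KO against Fgf21 KO, where Jak1 was at 0.44 ± 0.20. The Jak1 call was lost when wild-type replicate 4 or any 1 Clpp KO library was left out (0.78 to 0.96, edgeR adjusted p 0.062 to 0.0875). Among 10 interferon-activated transcription factors 3 rose, including Irf7 (2.18 ± 0.18, edgeR adjusted p = 5.82e-06) and the MHC class I activator Nlrc5 (1.17 ± 0.21, edgeR adjusted p = 0.00908). In double KO against Fgf21 KO Irf9, Stat2 and Batf2 joined them, making 6 of 10. Of 6 feedback genes 1 was called in each comparison, Usp18, which encodes a brake on the type I receptor (3.40 ± 0.17 and 3.94 ± 0.17, edgeR adjusted p = 1.09e-08 and 1.96e-09).

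Targets were read in 2 lists. Of 21 measured type I interferon targets 15 rose in Clpp KO against wild type and 21 in double KO against Fgf21 KO, with medians of 1.33 and 1.79. Examples in the former were Ifit1 (2.62 ± 0.18, edgeR adjusted p = 9.76e-07), Oasl1 (2.31 ± 0.19, edgeR adjusted p = 5.91e-06) and Ifit3 (2.40 ± 0.22, edgeR adjusted p = 2.22e-05), all genes of antiviral defence. Of 20 targets that lean to interferon gamma 4 rose in the former, with a list median of 0.20: Cxcl10 (2.61 ± 0.37, edgeR adjusted p = 0.00126), Tap1 (0.85 ± 0.16, edgeR adjusted p = 0.01), Cd274 (1.18 ± 0.24, edgeR adjusted p = 0.02) and Cxcl9 (1.12 ± 0.27, edgeR adjusted p = 0.0465). In double KO against Fgf21 KO 4 of 20 also rose, with a median of 0.38, and Cxcl9 was not among them (0.49 ± 0.27). Cd274 (1.14 ± 0.24, edgeR adjusted p = 0.0303) was, but lost that call when any 1 library of the 2 groups other than Fgf21 KO replicate 2 was left out (0.95 to 1.22, edgeR adjusted p 0.0508 to 0.13). With library totals alone the type I counts were 8 and 15, and the list leaning to gamma had 1 higher and 7 lower in the former and 2 higher and 3 lower in the latter. Without Clpp KO replicate 1 the type I count in Clpp KO against wild type was 12, and the calls of Cd274 and Cxcl9 were lost (edgeR adjusted p = 0.0621 and 0.155). Cd274 also lost its call without wild-type replicate 2 or 4 or Clpp KO replicate 4, and Cxcl9 without wild-type replicate 2 or 4 or any other Clpp KO library. The 10 GTPases had a median of 1.35 in Clpp KO against wild type, beside 1.33 for the type I list and 0.20 for the list leaning to gamma. The differences between these lists were not tested, and the lists were chosen with results of these libraries known.

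**Figure D5:**
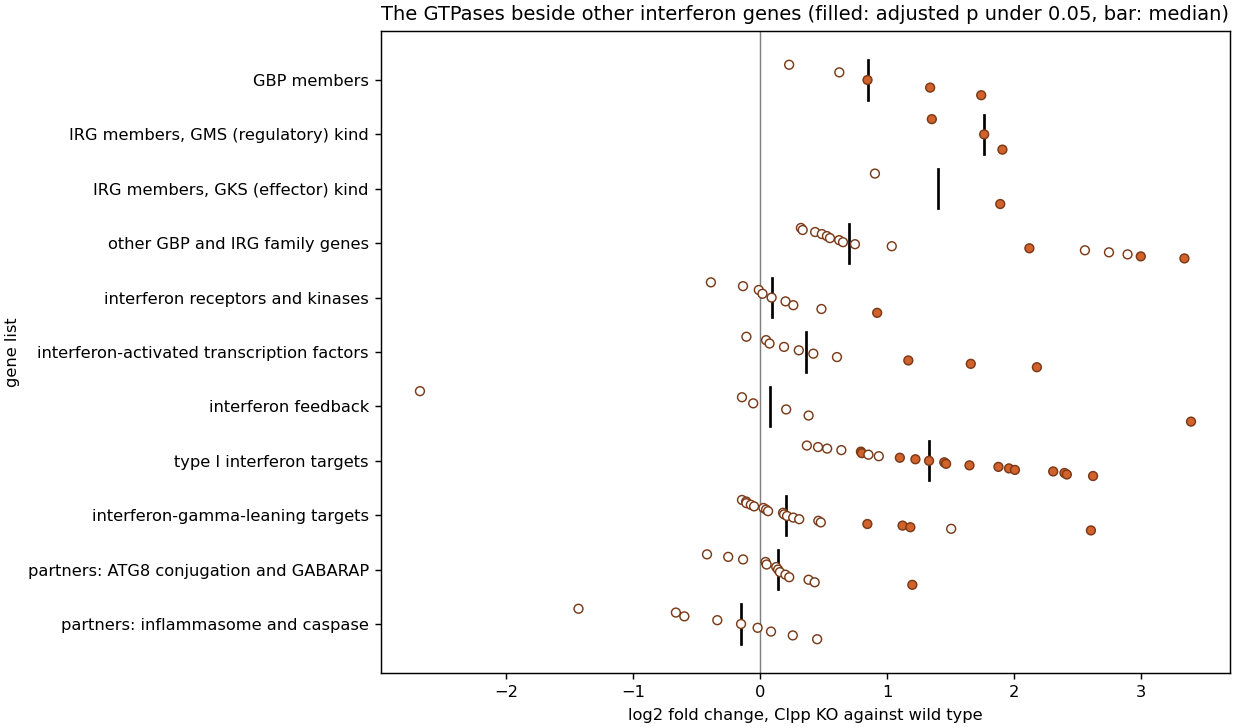
Log2 fold changes of single genes (points) in Clpp KO against wild type, by list, filled where the edgeR adjusted p was under 0.05, with a bar at each list's median. Of the type I interferon targets 15 of 21 are filled, and of the targets leaning to interferon gamma 4 of 20.

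Partners of the GTPases were read from 2 lists. The ATG8 conjugation machinery and GABARAP proteins, which place GBPs and IRGs on membranes, had 1 of 13 genes higher when Clpp KO was set against wild type, the autophagy receptor Sqstm1 (1.20 ± 0.26, edgeR adjusted p = 0.0287), and 0 in double KO against Fgf21 KO, where Sqstm1 was at 0.79 ± 0.26 (edgeR adjusted p = 0.37) and was called without Fgf21 KO replicate 2 (1.12, edgeR adjusted p = 0.0313) and with limma voom (adjusted p = 0.0226). In Clpp KO against wild type the Sqstm1 call was lost without wild-type replicate 2 or 4 or any 1 Clpp KO library (1.12 to 1.26, edgeR adjusted p 0.0642 to 0.0847). Of 9 inflammasome and caspase genes, the route through which GBPs trigger cell death, 0 were called in either comparison of Clpp loss. Il1b (-1.43 ± 0.65) and Gsdmd (-0.34 ± 0.18) had the smallest p in the former (edgeR adjusted p = 0.219 and 0.289).

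Cell-type markers were read beside these results, since in bulk tissue fewer cells of a type and less RNA per cell cannot be told apart. Macrophage and monocyte markers, the immune cells most common in heart, had 0 of 14 called in either comparison of Clpp loss without shared libraries. Their summed level was 154 to 301 CPM (wild type), 162 to 217 (Fgf21 KO), 212 to 275 (Clpp KO) and 173 to 253 (double KO). In wild type the highest sums were those of replicates 2 and 4 (301 and 267 CPM), the libraries where Gbp6 was lowest. T and NK cell markers summed to 1.78 to 5.61 CPM over all libraries, with 0 of 7 tested markers called in the same comparisons and 0 of 13 without a count. The neutrophil genes S100a8 and S100a9 were called lower in Clpp KO against wild type, and their list summed to at most 2.68 CPM in any library. Endothelial markers, which belong to a cell type known for GBP expression, had 1 of 12 called, Pecam1, which was lower, and summed to 1047 to 1245 CPM in wild type and 730 to 945 in Clpp KO. The endothelial sums overlapped between Fgf21 KO (1017 to 1169) and double KO (812 to 1269). Red blood cell transcripts also separated wild type from Clpp KO, summing to 2495 to 7309 CPM in wild type and 907 to 1821 in Clpp KO, with 0 of 6 markers called. Their sums overlapped between Fgf21 KO (1279 to 3053) and double KO (637 to 10956). Schwann and neural markers summed to 11.4 to 29.5 CPM in wild type and 7.16 to 8.90 in Clpp KO, with 1 of 6 called, Stmn2, which was lower. Their sums also overlapped between Fgf21 KO (10.8 to 13.4) and double KO (8.21 to 10.9). The part of any cell type in the GTPase levels was not tested.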

How the data were processed

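RNA from cardiac tissue was sequenced as stranded poly(A) libraries, per the labels' protocols. The deposited counts are whole numbers per gene entry that the authors made with fastp 0.21.0 and kallisto 0.46.1 on GRCm38.p6, per the submitters' processing notes, which also name edgeR 3.32.1, DESeq2 1.30.1 and R 4.0.3 without their roles. The sources used here do not give how kallisto's estimates became whole numbers or whether counting used strand, so the overlapping Igtp and Irgm2 models may share reads.

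All 16 libraries were fitted together with edgeR 4.0.16 in R 4.3.3 (filterByExpr at 10 counts per library and 15 in all, TMM, robust quasi-likelihood, 1 mean per group). Tests were two-sided, with Benjamini-Hochberg adjustment over 15255 entries and a threshold of 0.05. Alternatives were DESeq2 1.42.0, limma 3.58.1 (voom with quality weights), library totals alone, no filter, a replicate block, an atrial covariate, no mitochondrial genes, only the groups compared, copies summed, and libraries left out. The script was tested on simulated data. Every one of the 10 members was named, and of each pathway list up to 4 called genes with the smallest p in Clpp KO against wild type, or 2 where none was called. Irf9, Stat2, Batf2 and Gm12185 were added to complete counts, after their values were seen. The members and lists were chosen with earlier results of these data known. Protein motifs were not analysed here. The values of 1 list gene are not reported here.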

Additional observations from a re-analysis of the deposited data

Results flagged for a closer look

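In 3 of the 40 sets of 4 libraries tested (10 genes in 4 genotypes), 1 library lay farther from the other 3 than Dixon's 95% critical value for 4 samples allows. Chance alone gives about 1 in 20. All 3 were double KO replicate 2. Igtp stood there at 85.6 TMM-scaled CPM, where the next library had 38.2. Gbp3 stood at 19.7 CPM, with the next library at 13.4, and Gbp7 at 15.5 CPM, with the next at 10.5. The 3 genes were measured in the same library and are not independent.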

How the results depend on the processing

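Over 20 settings the number of members called higher ran from 5 to 9 (Clpp KO against wild type), 6 to 9 (double KO against Fgf21 KO) and 3 to 9 (double KO against wild type), and it was 0 in each setting for Fgf21 loss and the interaction. Calls over all entries moved as well: 95 to 1403 (165 in the reported fit), 91 to 268 (126) and 50 to 566 (160) entries were called higher, the most with limma voom, which gave 9, 8 and 9 members. Irgm1, Irgm2, Iigp1 and Gbp7 were called in every setting of Clpp KO against wild type. For double KO against wild type the count was 4 with library totals alone, 3 without wild-type replicates 2 and 4 and 3 when only the groups compared were fitted; the cause was not tested. Leaving out 1 library at a time gave 5 to 8, 6 to 7 and 6 to 9 calls in the 3 comparisons. Over all entries 97 to 454, 91 to 117 and 103 to 413 were then called higher. A fit with the replicate number as a block gave 7 calls in each, beside 119, 105 and 122 entries called higher. No sign was seen that the numbers pair the samples: deviations of same-numbered libraries correlated above 0.1 in 5 of 24 pairs (median -0.05). Among pairs with different numbers 24 of 72 did (median 0.0043). The correlations spread widely (-0.54 to 0.34 for same numbers), so this check cannot exclude pairing.

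Signs turned mainly with library totals alone, where the median of all entries lay at -0.79, -0.70 and -0.92 in the 3 comparisons. There Gbp2 was at -0.56 and Gbp5 at -0.12 in Clpp KO against wild type, Gbp5 at -0.0042, Jak1 at -0.26 and Cxcl9 at -0.18 in double KO against Fgf21 KO, and Gbp2 at -0.45 and Gbp5 at -0.31 in double KO against wild type. Gbp2 in Fgf21 KO against wild type was at 0.031 with limma voom. Tgtp1 in double KO against Clpp KO was at -0.035 without double KO replicate 2, the lowest of the values with 1 library left out, which reached 0.64 without Clpp KO replicate 1. The spread between 4 libraries per group limits these differences, gene by gene, to the intervals given.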
